A study of Drosophila melanogaster with 8 samples.

Results

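RNA from fly heads was compared between ZT16, in the dark phase, and ZT4, in the light phase, within 2 strains, the cluster overexpression strain and the w1118 control. The study is about an oscillating miRNA cluster, miR-959 to miR-964, and its part in when flies feed and in further rhythms under clock control. The overexpression strain has the genotype yw with tim-gal4 and UAS-mir-cluster over the CyO balancer, so that the driver is active where the tim promoter is, and its comparison here is with w1118 flies, which lack the driver, the transgene and the balancer. Flies of both strains were held for 3 days in 12 h of light and 12 h of darkness before collection. Time is given as ZT, hours after lights on. There is 1 array for each strain and time, 4 of the 8 arrays of the series. The other 4 arrays are of the knockout, w1118 flies deleted for miR-959 to miR-962, and of the tim-gal4 control, yw flies with tim-gal4 over CyO. They are used only where named.

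Values are log2 intensities of probe sets, groups of short probes that each read 1 transcript or a few, and the lowest value on each of the 4 arrays was 2.32. A value near it means that no signal above background was seen. Of 18769 probe sets other than controls, 7751 passed the filter, which asks for a log2 level of 4 or more on 2 or more of these 4 arrays. Of these, 6850 carried 1 gene symbol and stood for 6395 genes, of 11981 named on the array. A rise or fall in a single pair means a change of at least 2-fold, that is at least 1 on the log2 scale, and has no test behind it. "Called" means an adjusted p under 0.05 in a limma fit over both pairs, described with the results. The flies of an array were not stated to come from separate cultures, and in whole heads fewer cells of a type and less RNA per cell cannot be told apart.

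In Drosophila the clock is a feedback loop. The proteins CLK and CYC switch on per and tim in the evening, the products PER and TIM later return to the nucleus and shut this activity off, and light acts on TIM through the photoreceptor protein CRY. In a second loop VRI represses and PDP1 activates Clk, so that Clk and cry RNA run in the opposite phase to per, tim and vri. Heads are rich in clock-bearing cells, since photoreceptors and glia carry the loop along with clock neurons, and the fat tissue of the head cycles as well.

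The 2 pairs were chosen as those free of accessory gland and gut markers, so the values of these markers describe the choice. All 17 accessory gland genes on the array lay under log2 4 on the 4 arrays, and 16 of them under 3. Their summed linear intensity was 88.9 to 89.9 on these arrays, against 17200 on the knockout ZT16 array and 10860 on the tim-gal4 control ZT16 array. Of 23 gut enzyme genes, 21 stayed under 3 on all 4 arrays. The exceptions were LManII, at 9.71 to 10.73, and the maltase gene Mal-A1, at 3.86 to 4.94. For 20 testis genes this count was 18, and the exceptions were bol and Mst84Dc, and all 16 ovary and eggshell genes were under 3. Most head markers reached log2 4, with 19 of 20 photoreceptor genes and 14 of 14 glial genes on each of the 4 arrays. Of 17 neuronal genes all reached it in overexpression and 15 in w1118, where VGlut read 2.68 at both times and brp 3.86 and 3.87. Values were 13.86 to 14.32 for the photoreceptor arrestin gene Arr2, 7.73 to 8.75 for the glial gene repo and 6.83 to 8.24 for the neuronal gene elav. The pigment gene y read 2.33 at both times in the overexpression strain, and 2.58 at ZT16 against 4.20 at ZT4 in w1118. DIP-theta, which hosts the cluster, read 5.08 at ZT16 against 5.01 at ZT4 in overexpression and 6.02 against 5.98 in w1118.

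Most transcripts changed little between the times. The median change over the 7751 probe sets was -0.02 on the log2 scale in overexpression and 0.01 in w1118, and 93.6% of probe sets in overexpression and 92.6% in w1118 stayed within 0.5. In overexpression 35 probe sets rose (0.452%) and 24 fell (0.31%). In w1118 48 rose (0.619%) and 69 fell (0.89%). The rises had 14 probe sets in common (0.181% of all), which is 40% of those in overexpression and 29.2% of those in w1118. The falls had 12 in common (0.155% of all), 50% of those in overexpression and 17.4% of those in w1118. All 26 shared probe sets carried 1 symbol, and they stand for 12 genes that rose and 12 that fell.

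**Figure D1:**
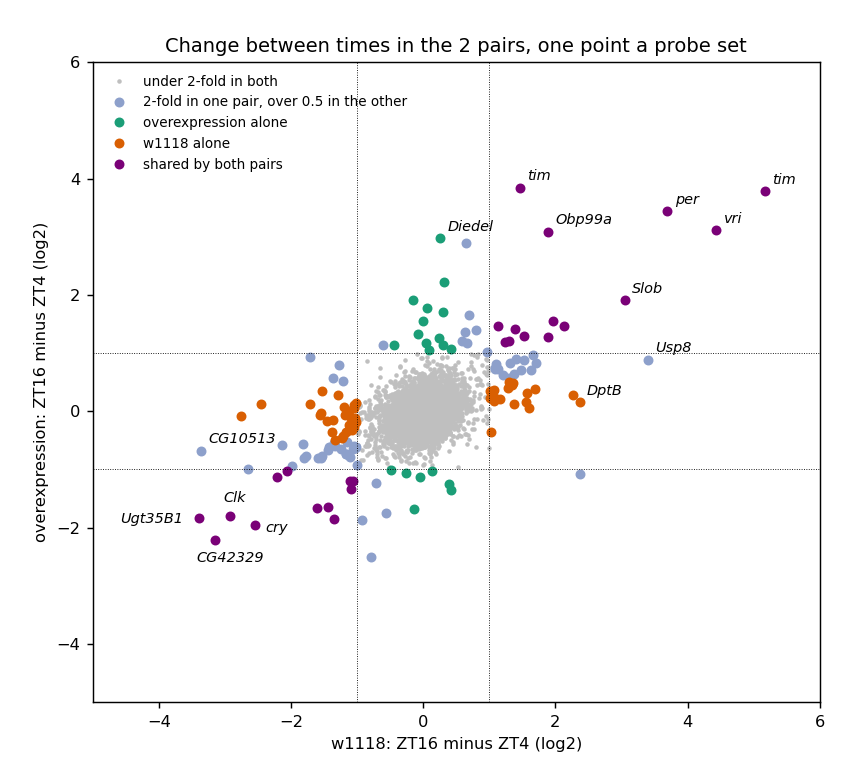
Change from ZT4 to ZT16 (log2) of each of 7751 probe sets in overexpression (vertical axis) and in w1118 (horizontal axis), with dotted lines at 2-fold. The 14 shared rises lie at the upper right and the 12 shared falls at the lower left, with per, tim and vri farthest out among the rises, while most probe sets form a cloud around 0.

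Time was tested over both pairs with a limma fit that had strain as a block. Its error is the part of the change that differs between the strains, with 1 residual degree of freedom and 7.09 prior degrees of freedom borrowed from all probe sets. It called 50 probe sets higher at ZT16 (0.645%) and 50 lower (0.645%), 1.29% in all, with Benjamini-Hochberg adjusted p-values under 0.05. All 26 shared probe sets were among them, as follows in part from how they were chosen. Myo28B1 and CG8419 passed the filter through their ZT16 arrays only, and Clk, Jhe and GstD10 through their ZT4 arrays only. For these the filter itself leaned on the time difference that was tested. The count depended on the setting. After quantile normalization 30 were called, 23 of the 26 shared probe sets and 7 of the other 74, of which Lsp2, Drs and CG10175 are named below, so that the other calls named outside the 26 rest on the scaling as deposited. There were 214 calls with a filter at log2 6, and 0 with no filter (1102 at an unadjusted p under 0.05) or with no strain block (67, against 845 in the fit reported). With trended and robust moderation 72 were called, and the first tim probe set, vri, Clk, Slob, Obp99a, Ugt35B1, Gasp, CG9377 and the second tim probe set were then not among them.

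The clock repressor genes tim, vri and per had the largest mean rises. tim read 10.77 at ZT16 against 6.99 at ZT4 in overexpression, and 11.17 against 6.0 in w1118. vri, the repressor of Clk, read 8.75 against 5.64 in overexpression and 9.66 against 5.23 in w1118. per read 7.96 against 4.51 in overexpression and 7.89 against 4.19 in w1118. For each of these genes both ZT16 values lay above both ZT4 values. The changes averaged over the pairs were 4.48 for tim (SE 0.27, 22.3-fold), 3.78 for vri (SE 0.27, 13.7-fold) and 3.57 for per (SE 0.13, 11.9-fold), over 2 pairs. Adjusted p-values in limma were 0.000696 for tim, 0.00133 for vri and 2.79e-05 for per.

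A second tim probe set behaved unlike the first. It read 8.49 at ZT16 against 4.64 at ZT4 in overexpression, and 3.82 against 2.36 in w1118, where the ZT4 value was near background. Only its overexpression arrays reached the filter level. Its change was 3.85 in overexpression and 1.46 in w1118, while the first probe set changed by 3.78 and 5.17. In the tim-gal4 control, which carries the same driver, this second set changed by 3.31, and in the knockout by 0.89. What its probes read in strains with the driver was not analysed here.

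Clk and cry fell. Clk, which encodes the activator of the loop, read 3.71 at ZT16 against 5.51 at ZT4 in overexpression, and 3.06 against 5.97 in w1118. cry read 6.56 against 8.52 in overexpression and 4.84 against 7.40 in w1118. Their mean changes were -2.36 (SE 0.23, adjusted p = 0.00382 in limma) for Clk and -2.25 (SE 0.16, adjusted p = 0.00133 in limma) for cry. The lowest Clk value, at ZT16 in w1118, is close to background, which limits the fall that could be measured there. Only the ZT4 values of Clk reached the filter level.

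Pdp1 and cwo moved less. Pdp1 changed by 0.82 in overexpression and 1.70 in w1118 (mean 1.26, SE 0.20, adjusted p = 0.0303 in limma). The repressor gene cwo changed by 0.64 in overexpression and 1.37 in w1118 on the log2 scale (mean 1.01, SE 0.18, adjusted p = 0.0427 in limma), and its second probe set by 0.81 and 1.09. Usp8, which encodes a deubiquitinating enzyme, read 7.07 at ZT16 against 6.18 at ZT4 in overexpression and 8.13 against 4.73 in w1118. Its changes were 0.89 and 3.40, and it was not called (adjusted p = 0.0885 in limma).

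Of the 24 genes fixed as core clock genes 18 were on the array with a symbol of their own, and 16 passed the filter. Of these 16, limma called 5 higher (per, tim, vri, Pdp1, cwo) and 2 lower (Clk, cry), and 9 were not called. Besides Usp8 these 9 include Fbxl4, an F-box protein gene, with changes of 0.66 in overexpression and 0.58 in w1118 (adjusted p = 0.071 in limma). The activator partner cyc, the kinase gene dco, slmb, tws, Bdbt, the neuropeptide gene Pdf and its receptor gene Pdfr had mean changes between -0.10 and 0.23. jet and Hr51 were on the array but under the filter. The median change of the 16 genes was 0.17 in overexpression and 0.28 in w1118, against medians over all genes kept of -0.02 and 0.01.

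**Figure D2:**
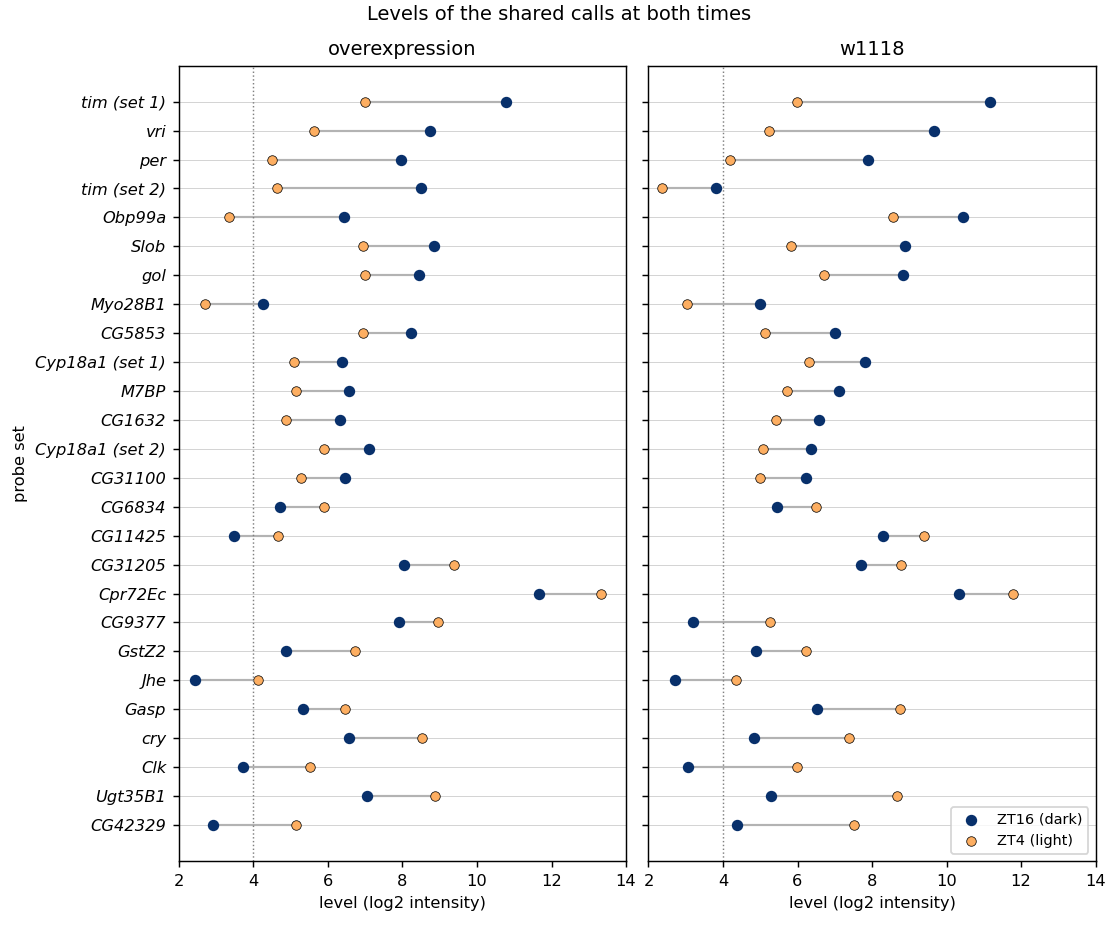
Level (log2 intensity) of each shared probe set at ZT16 (dark points) and ZT4 (light points) in overexpression (left) and w1118 (right), ordered by mean change, with a dotted line at the filter level of 4. The upper 14 probe sets are higher at ZT16 in both strains and the lower 12 are lower at ZT16 in both, while several, among them Obp99a and CG11425, sit at very different levels in the 2 strains.

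Outside the loop, the shared rises were led by Slob and Obp99a. Slob, whose protein binds the Slowpoke potassium channel, read 8.85 at ZT16 against 6.94 at ZT4 in overexpression and 8.89 against 5.84 in w1118 (mean change 2.48, SE 0.24, adjusted p = 0.00355 in limma). A second, dimmer Slob probe set changed by -0.35 in overexpression and 0.10 in w1118. Obp99a, an odorant-binding protein gene, read 6.44 against 3.35 in overexpression and 10.44 against 8.56 in w1118 (mean change 2.49, SE 0.25, adjusted p = 0.00382 in limma). Its change had the same direction in both strains although their levels were far apart.

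The ubiquitin ligase gene gol read 8.46 at ZT16 against 6.99 at ZT4 in overexpression and 8.84 against 6.71 in w1118, while its other probe set changed by 0.28 and 0.10. The unconventional myosin gene Myo28B1 was low, with 4.25 against 2.69 in overexpression and 4.99 against 3.03 in w1118. Myo28B1 and Slob are direct neighbours in the order of RefSeq genes (Drosophila Release 6), the only such pair among the shared rises. M7BP, whose product is named for binding myosin 7a, changed almost equally in both, by 1.42 in overexpression and 1.39 in w1118. Its other probe sets changed by -0.07 and 0.06 and by -0.55 and -0.17.

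Cyp18a1, the enzyme that inactivates ecdysone, rose on both of its probe sets. The brighter set read 6.39 at ZT16 against 5.10 at ZT4 in overexpression and 7.82 against 6.30 in w1118, and the changes of the other were 1.21 and 1.30. The remaining shared rises were CG5853 (1.27 in overexpression, 1.89 in w1118), CG1632 (1.46 and 1.13) and CG31100 (1.19 and 1.23). The mean changes of these genes lay between 1.21 and 1.80 on the log2 scale, with gol the highest of those measured above background. Adjusted p-values in limma ranged from 0.00207 for Myo28B1, which passed the filter only through the time at which it is high, to 0.00538 for CG1632.

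Among the shared falls outside the loop, CG42329 and Ugt35B1 had the largest mean changes. CG42329 read 2.92 at ZT16 against 5.14 at ZT4 in overexpression and 4.37 against 7.52 in w1118 (mean change -2.69, SE 0.21, adjusted p = 0.00144 in limma), where 2.92 is near background. Ugt35B1, a glycosyltransferase gene, read 7.04 against 8.87 in overexpression and 5.29 against 8.68 in w1118 (mean change -2.61, SE 0.30, adjusted p = 0.00782 in limma). GstZ2, a zeta-class glutathione transferase gene, read 4.87 against 6.72 in overexpression and 4.88 against 6.23 in w1118. Jhe, the juvenile hormone esterase gene, read 2.44 against 4.11 in overexpression and 2.73 against 4.34 in w1118, so that both ZT16 values were near background. Only its ZT4 values reached the filter level.

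Genes of the cuticle were also among the falls. The cuticle protein gene Cpr72Ec was bright, with 11.67 at ZT16 against 13.31 at ZT4 in overexpression and 10.35 against 11.79 in w1118. Gasp, which encodes a chitin-binding protein, read 5.32 against 6.45 in overexpression and 6.53 against 8.75 in w1118. CG11425 read 3.47 against 4.67 in overexpression and 8.30 against 9.40 in w1118, and CG9377 read 7.91 against 8.95 in overexpression and 3.19 against 5.25 in w1118. These 2 genes thus had opposite strain levels and the same direction with time. CG31205 changed by -1.34 in overexpression and -1.09 in w1118, and CG6834 by -1.20 and -1.06. Adjusted p-values in limma for the cuticle genes and these 4 lay between 0.00224 and 0.0240.

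The threshold of 2-fold in both pairs leaves close cases outside. CG9377, with its change of -1.04 in overexpression, and CG6834, with -1.06 in w1118, lay just inside. CG13305 lay just outside, with -1.0 in overexpression and -2.65 in w1118, as did the storage protein gene Lsp2, with 1.02 and 0.97, and CG10175, with 0.96 and 1.65. Lsp2 read 6.85 at ZT16 against 5.83 at ZT4 in overexpression and 11.33 against 10.36 in w1118, again a similar change from unlike levels. In limma Lsp2 was called (mean change 0.99, SE 0.13, adjusted p = 0.0155).

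The sizes of the changes were set side by side. The change was larger in w1118 for 10 of the 14 shared rises and 6 of the 12 shared falls, against 50.2% of all probe sets kept. Of the probe sets called in limma, 34 of 50 higher and 37 of 50 lower had the larger change in w1118. Whether a single gene changed by a different amount was tested with a further limma fit, described with the changes of 1 pair. It called none of the 26 shared probe sets, of which 9 had an unadjusted p under 0.05, against 6.23% of all probe sets. The differences, overexpression minus w1118, were -1.39 for tim (SE 0.74), -1.32 for vri, -0.25 for per and -1.15 for Slob (SE 0.25), with adjusted p-values of 0.858, 0.543, 0.955 and 0.304 in limma, and a miss does not show that the sizes are alike.

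The shared calls were read next in the 2 pairs that had no part in their choice, the knockout and the tim-gal4 control. All 14 shared rises were positive and all 12 shared falls were negative in both. Over all 7751 probe sets, 24.1% of knockout values were higher by any amount at ZT16 and 75.9% lower, with a median of -0.16. For the tim-gal4 control these shares were 25% and 75%, with a median of -0.19. At 2-fold, 8 of 14 rises passed in the knockout, where 0.787% of all probe sets did. In the tim-gal4 control 11 passed, against 0.903% of all. Of the 12 falls 10 passed in knockout flies, against 1.11% of all, and 12 passed in the tim-gal4 control, against 1.43%. Cyp18a1 and CG1632 missed 2-fold in both strains, with values of 0.46 to 0.97. CG31100 (0.74), Myo28B1 (0.94) and the second tim set (0.89) missed it in the knockout only. So did CG31205 (-0.60) and CG6834 (-0.85) among the falls. The ZT16 arrays of both pairs hold accessory gland, gut and testis RNA, whose part in these values was not tested.

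**Figure D3:**
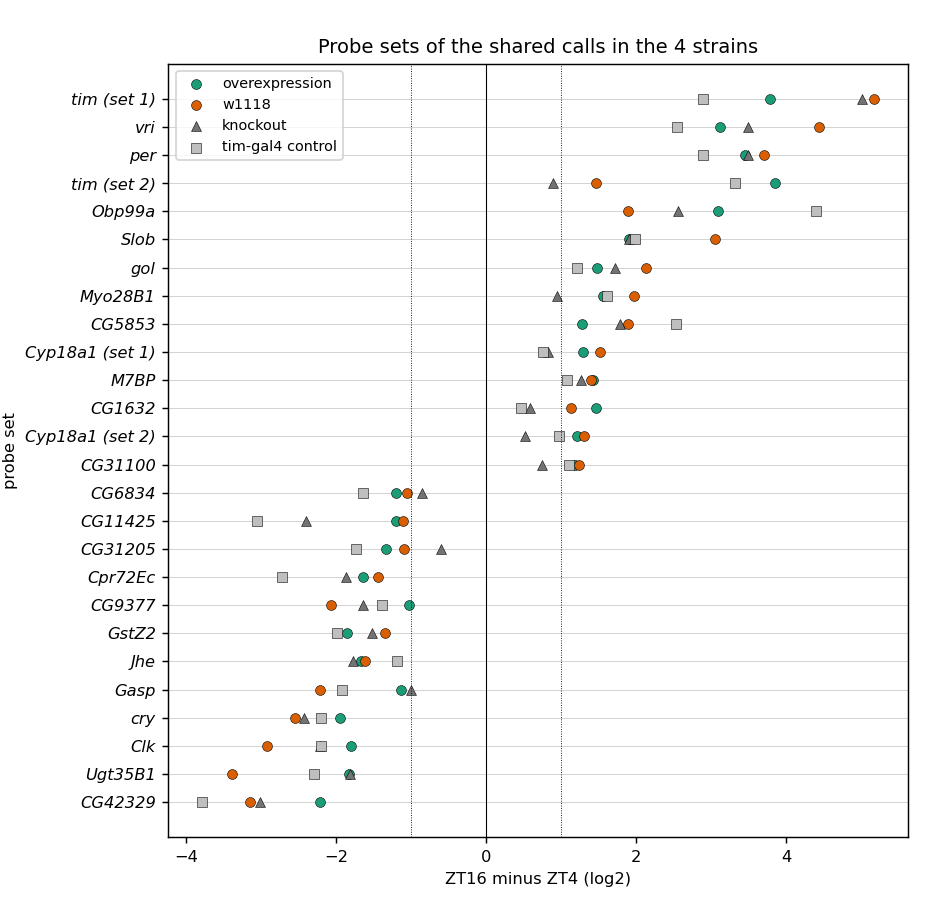
Change from ZT4 to ZT16 (log2) of each shared probe set in overexpression, w1118, the knockout and the tim-gal4 control, with dotted lines at 2-fold. Every symbol lies on the same side of 0 for each probe set, and the first tim set has changes of 5.17 and 5.0 in w1118 and the knockout, above 3.78 and 2.89 in the strains with the driver.

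Beyond the shared 2-fold changes, limma called 36 further probe sets higher and 38 lower, 55 of these with a mean change under 2-fold. Among all 50 higher, which include the 14 shared rises read above, 44 were positive in knockout flies and also 44 in tim-gal4 control flies. The shares over all probe sets were 24.1% and 25%. Among all 50 lower, which include the 12 shared falls, 50 and 48 were negative there, against 75.9% and 75% of all probe sets. The called probe sets are read below by gene list, with 1 probe set for each gene. Over all 6395 genes kept, 42 were called higher and 46 lower.

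A minority of the detoxification genes were called in each family, and the families were not tested against each other. Of 48 cytochrome P450 genes, 4 rose and 1 fell in limma, and 43 were not called. Cyp18a1, Cyp309a2 (0.93, SE 0.14), Cyp4d21 (0.91, SE 0.16) and Cyp6d5 (0.87, SE 0.13) rose, and Cyp305a1 fell (-1.18, SE 0.18), with adjusted p-values of 0.0425 or lower. Cyp6d5 read 11.48 at ZT16 against 10.56 at ZT4 in overexpression and 11.40 against 10.59 in w1118. Of 25 glutathione transferase genes 4 fell and none was called higher, namely GstZ2, GstE1 (-0.94, SE 0.16), GstD10 (-0.81) and GstD9 (-0.74). Of 14 UDP-glycosyltransferase genes 3 fell and none was called higher, namely Ugt35B1, Ugt302C1 (-0.95, SE 0.15) and Ugt49C1 (-0.83, SE 0.14).

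The family medians were 0.01 in overexpression and 0.04 in w1118 for P450 genes. For glutathione transferases they were -0.13 in overexpression and -0.32 in w1118, and for glycosyltransferases -0.17 and -0.30. Some members not called had larger values in w1118. GstE9 changed by -0.06 in overexpression and -1.57 in w1118, and GstD3 by -0.49 and -1.33, and neither was called (adjusted p = 0.338 and 0.0879 in limma).

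In tyrosine breakdown, 3 enzyme genes fell. Hpd, the hydroxyphenylpyruvate dioxygenase gene, read 9.67 at ZT16 against 10.47 at ZT4 in overexpression and 8.88 against 10.68 in w1118 (mean change -1.30, SE 0.22, adjusted p = 0.0391 in limma). hgo, which encodes homogentisate dioxygenase, changed by -0.73 in overexpression and -1.17 in w1118 (mean -0.95, SE 0.15, adjusted p = 0.0298 in limma). GstZ2, of the family that isomerizes the product of that step, fell as given above. GstZ1, of the same family, was not called (0.09 in overexpression, -0.16 in w1118), and neither were Tat (-0.35), at the start of the pathway, and Faa (-0.21), at its end. These 3 falls were the only calls among 16 genes of tyrosine breakdown, dopamine and pigment.

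Immune genes moved both ways. Of 14 genes, limma called the antifungal peptide gene Drs (1.15, SE 0.16, adjusted p = 0.0208) and the peptidoglycan recognition gene PGRP-SB1 (0.72, SE 0.13, adjusted p = 0.0422) higher and the defensin gene Def lower (-1.39, SE 0.21, adjusted p = 0.0284). Def read 6.15 at ZT16 against 8.01 at ZT4 in overexpression and 6.36 against 7.29 in w1118. Drs changed by 0.89 in overexpression and 1.41 in w1118, but by 0.47 in knockout and -3.81 in tim-gal4 control flies, and over all 8 arrays its mean change was -0.26. In the knockout and the tim-gal4 control PGRP-SB1 changed by -0.29 and -0.06, and Def by -0.21 and -0.23. The medians of all probe sets there were -0.16 and -0.19.

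Other lists held 1 or 2 calls. Gfat1, the first enzyme of hexosamine synthesis, rose (0.87, SE 0.13, adjusted p = 0.0286 in limma) as 1 of 26 sugar metabolism genes, while its second probe set, near background in overexpression at ZT4, changed by 0.07. Pcyt2, an enzyme of phosphatidylethanolamine synthesis, fell (-0.89, SE 0.13, adjusted p = 0.0244 in limma) as 1 of 21 lipid genes. Jhe and Cyp18a1 were the calls among 11 hormone metabolism genes of juvenile hormone and ecdysone. Lsp2 and Cyp4d21 rose among 12 fat body genes, Slob among 19 ion channel genes, Obp99a among 20 odorant-binding protein genes, and Cpr72Ec fell among 16 cuticle protein genes.

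Of 18 transcripts listed from earlier reports as cycling in heads, 4 rose (Slob, Obp99a, Cyp18a1, Cyp4d21) and 4 fell (Ugt35B1, GstZ2, Cpr72Ec, Cyp305a1), and 10 were not called. Over all 6395 genes 42 were called higher and 46 lower. The list was chosen with earlier results of these data known, so its count is no independent check. Median changes of these 18 were -0.15 in overexpression and 0.06 in w1118.

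Several large groups had no call in limma, and in these the count at an unadjusted p under 0.05 was 5 of 19 for phototransduction, 3 of 11 for chaperones and 1 of 16 for hormones, against 10.9% of all probe sets. Of 16 feeding and metabolic hormone genes the insulin-like peptide gene Ilp5 was the largest, with changes of -0.36 in overexpression and -0.53 in w1118 (adjusted p = 0.207), and ITP (-0.24 and -0.33) and ImpL2 (0.31 and 0.25) followed. Of 19 phototransduction genes the largest changes were those of laza (-0.16 in overexpression, -1.46 in w1118) and inaC (-0.97 and -0.52), with adjusted p-values of 0.263 and 0.0637. The scaffold gene inaD changed by -0.54 and -0.74, and the histamine receptor gene ort by 0.53 and 0.58. Of 11 chaperone genes Hsp26 had changes of 1.91 in overexpression and -0.16 in w1118.

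Neither neurons (17 genes), glia (14), muscle (12), hemocytes (13) nor synapse genes (16) had a call, with 0 to 2 genes each at an unadjusted p under 0.05. elav changed by -0.22 in overexpression and -0.46 in w1118, the glial enzyme gene e by -0.48 and -0.42, and lz by 0.57 and 0.82. The same held for 30 cytosolic and 69 mitochondrial ribosomal protein genes, 27 proteasome, 18 proton pump and 47 respiratory chain genes, of which 1 had an unadjusted p under 0.05 and whose medians lay between -0.09 and 0.15 in both strains. No odorant or gustatory receptor of 165 on the array passed the filter.

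**Figure D4:**
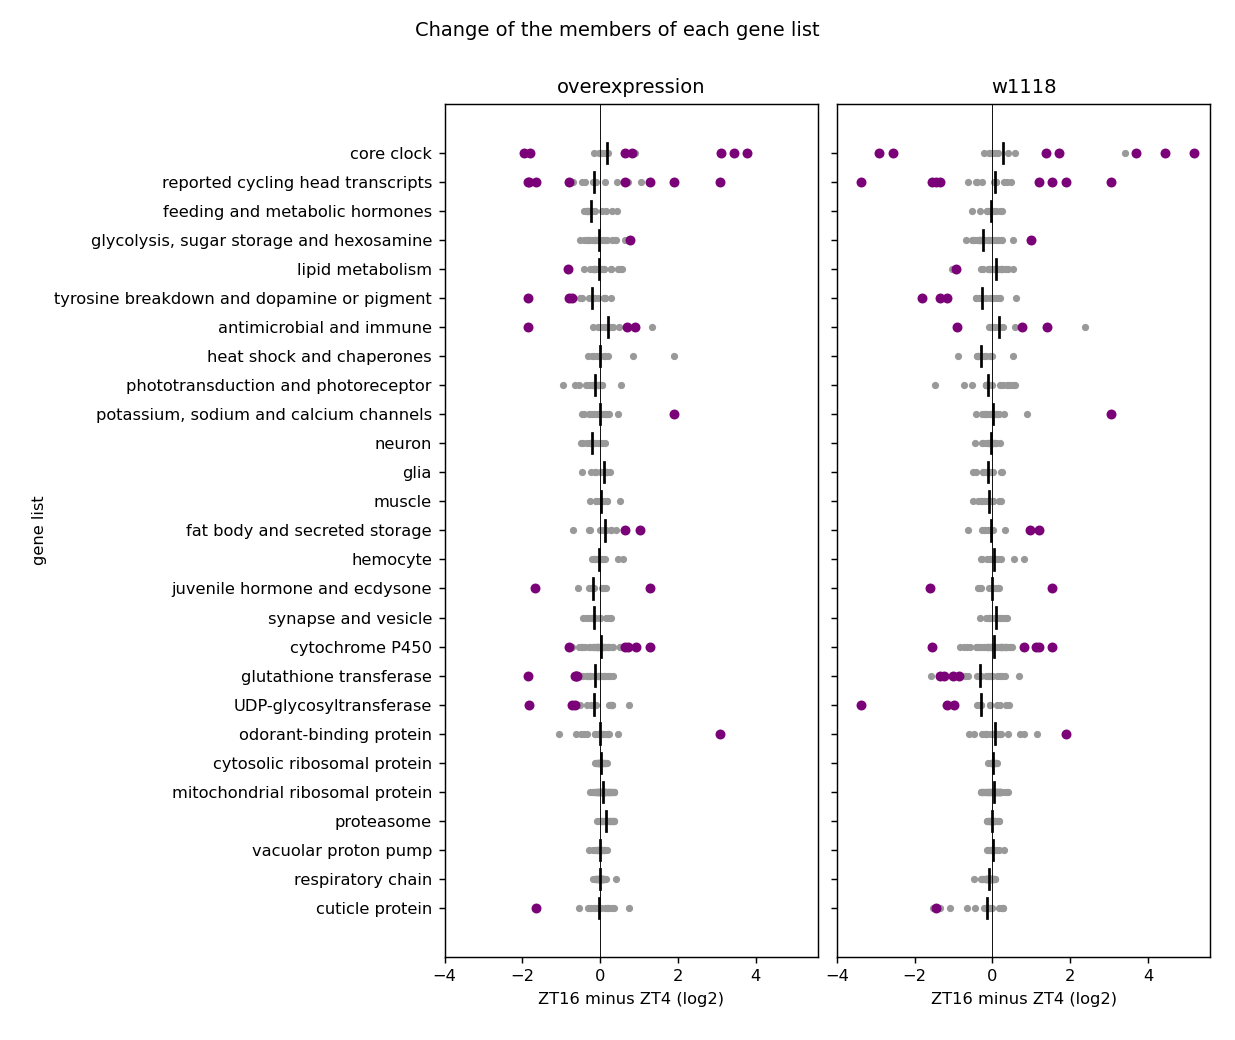
Change from ZT4 to ZT16 (log2) of the members of each gene list with at least 10 genes kept, in overexpression (left) and w1118 (right), with a black bar at the median and genes called in limma in purple. Single members of the core clock, reported cycling, ion channel, glycosyltransferase and odorant-binding lists lie past 3 on either side of 0 in a strain, and the ribosomal, proteasome and proton pump lists stay close to it.

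Changes seen in 1 pair only were counted where the other pair stayed within 0.5 on the log2 scale. In overexpression these were 13 rises and 7 falls, and in w1118 18 rises and 29 falls. Of these, 2 of 13, 0 of 7, 2 of 18 and 2 of 29 had an array under log2 3. For such probe sets the other pair was near background, where little change could be measured. They passed the filter only through the strain that changed, so they cannot show that the other strain stayed still. Between the classes, probe sets past 2-fold in 1 pair and between 0.5 and 1 the same way in the other numbered 7 rises and 4 falls in overexpression and 15 rises and 24 falls in w1118. A further 4 falls in w1118 and 1 rise in overexpression came with a change of 0.5 to 1 the opposite way in the other pair. Single arrays give no error for such a contrast. The difference of the time change was therefore tested in limma over all 8 arrays. Its residual error is how far the knockout and the tim-gal4 control differ from each other, at 1 residual degree of freedom. To this come 8.11 prior degrees of freedom borrowed from all probe sets, which carry most of the weight. The ZT16 arrays of these strains hold accessory gland, gut and testis RNA, whose part in that error was not tested. The fit called 6 probe sets (0.0774%), 2 of them among the 67 changed in 1 pair only, and 0 after quantile normalization, where 343 had an unadjusted p under 0.05. Strain background, transgene and single array cannot be told apart in this contrast.

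Diedel, which encodes a secreted regulator of immunity, was above background in overexpression only, of the 4 strains, and passed the filter through those arrays only. It read 7.51 at ZT16 against 4.53 at ZT4 in overexpression, and 2.61 against 2.35, near background, in w1118. In the knockout and the tim-gal4 control it was also near background, at 2.42 to 2.72. Its difference between the strains was called (2.73, SE 0.26, adjusted p = 0.00993 in limma). The error behind this call joins the prior from all probe sets with strains near background. It says nothing of the spread of Diedel at the levels in overexpression. The stress genes Hsp26 and TotC had rises of 1.91 and 1.33 in overexpression, against -0.16 and -0.09 in w1118, with 1.41 and 1.5 in the knockout but -0.26 and -1.90 in the tim-gal4 control. CG11854 read 6.82 against 5.27 in overexpression and 2.37 at both times, near background, in w1118. Other rises in overexpression alone were those of Achl (1.70), the cytochrome P450 gene Cyp4e3 (1.26), the glycerol kinase gene Gk2 (1.17), the eye pigment transporter gene bw (1.14), CG8539 (1.13) and CG42367 (1.07).

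The 7 falls in overexpression alone were negative in the tim-gal4 control in 7 cases and in the knockout in 6, where 75% and 75.9% of all probe sets were negative. Of the 7, 5 passed 2-fold in the tim-gal4 control and 3 in the knockout, against 1.43% and 1.11% of all. Hr38, a nuclear receptor gene, read 3.09 at ZT16 against 4.77 at ZT4 in overexpression and 4.42 against 4.56 in w1118, and changed by -1.31 in knockout and -2.59 in tim-gal4 control flies. CG3348 changed by -1.35 in overexpression and 0.42 in w1118, with -1.89 in knockout and -1.79 in tim-gal4 control flies. The tetraspanin gene Tsp42Ek (-1.12), CG14186 (-1.03) and wac (-1.02) had values of -0.82 to -1.69 in the knockout and the tim-gal4 control, while CG12643 (-1.26) and Obp56h (-1.06) lay between -0.79 and 0.14 there. No difference of the 7 was called, the nearest being CG3348 (-1.77, SE 0.25, adjusted p = 0.0544 in limma).

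Peptide genes of the immune response were among the rises in w1118 alone. DptB, a diptericin gene, read 6.83 at ZT16 against 6.67 at ZT4 in overexpression and 8.02 against 5.65 in w1118. Mtk changed by 0.48 in overexpression and 1.36 in w1118. In the 2 other pairs DptB and Mtk went the other way, with -1.67 and -4.51 for DptB and -0.94 and -2.55 for Mtk in the knockout and the tim-gal4 control. Listericin, also an immune gene of this class, changed by 0.35 in overexpression and 1.02 in w1118. It was positive in the knockout and the tim-gal4 control as well, with 0.70 and 0.76. A probe set of rdgC, the rhodopsin phosphatase gene, changed by 0.31 in overexpression and 1.58 in w1118, while the brighter rdgC set changed by -0.36 and 0.27. Cipc, whose mammalian counterpart binds CLOCK, changed by 0.39 and 1.28. The others named by size were CG11241 (0.15 and 1.55), CG6409 (0.45 and 1.35), CG1943 (0.50 and 1.29) and Obp56a (0.21 and 1.16). CG7365 (0.06 and 1.60) and CG13563 (0.22 and 1.08) were near background in overexpression at ZT4. None of these differences was called.

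Falls in w1118 alone were the largest of the 4 classes, with 29 probe sets, and 25 of them were negative in knockout flies and also 25 in tim-gal4 control flies, where 75.9% and 75% of all probe sets were negative. Of the 29, 8 (27.6%) passed 2-fold in knockout flies, against 1.11% of all probe sets. In tim-gal4 control flies 2 (6.9%) passed, against 1.43% of all. The cuticle protein gene Cpr100A read 5.09 at ZT16 against 4.74 at ZT4 in overexpression and 5.12 against 6.65 in w1118, and its difference was called (1.87, SE 0.25, adjusted p = 0.0452 in limma). IA-2, a gene of dense-core vesicles, changed by -0.04 in overexpression and -1.54 in w1118. laza changed by -1.47 in the knockout as well. Phyhd1 (-0.36 in overexpression, -1.38 in w1118), firl (-0.14 and -1.36), and CG8654 (0.28 and -1.29) completed those named by size, beside GstE9 and GstD3. CG7214 read 2.85 at ZT16 against 2.73 at ZT4 in overexpression, near background, and 4.18 against 6.64 in w1118.

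**Figure D5:**
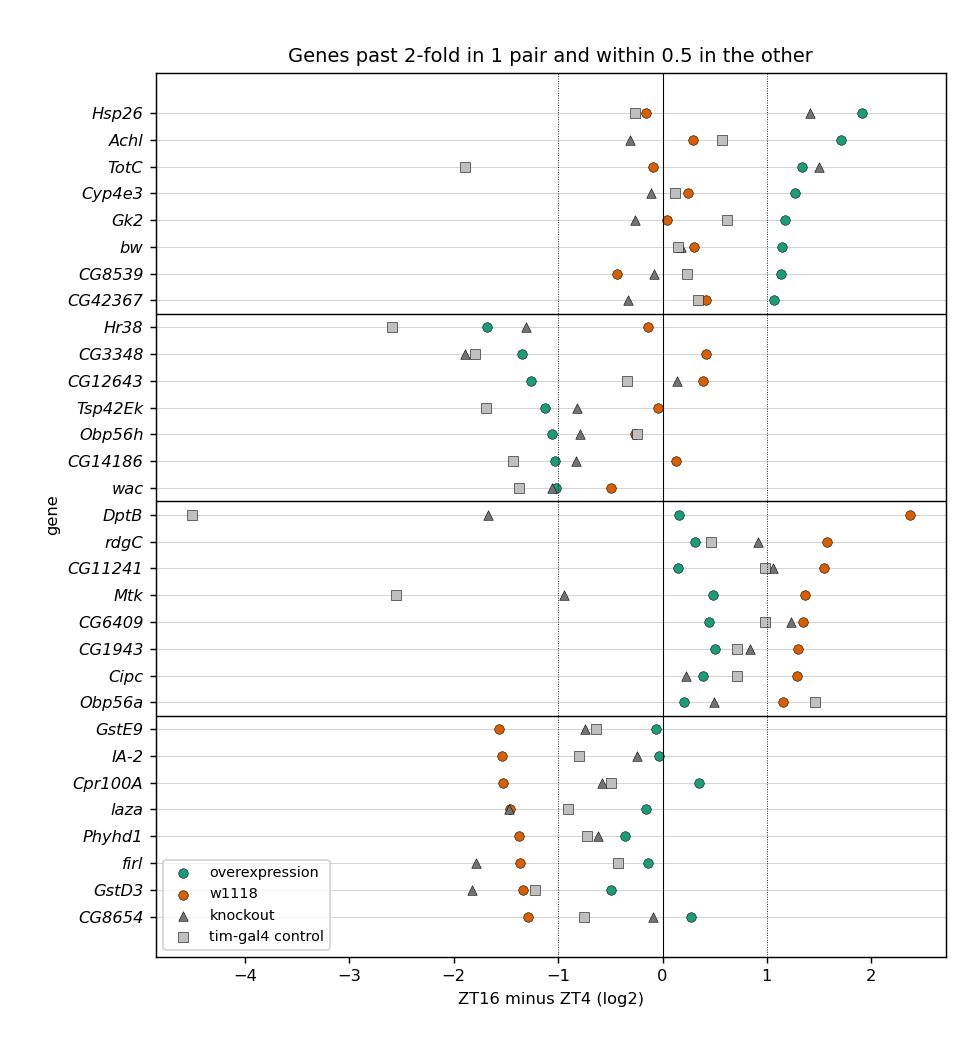
Change from ZT4 to ZT16 (log2) in the 4 strains of named genes past 2-fold in 1 pair and within 0.5 in the other, in blocks from top to bottom of rises and falls in overexpression alone and rises and falls in w1118 alone. Points of the knockout and the tim-gal4 control often lie between the other points, and for DptB and Mtk they lie on the other side of 0.

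Only 1 probe set passed 2-fold in opposite directions, 1628699_at, which carries no symbol. It read 5.14 at ZT16 against 6.21 at ZT4 in overexpression and 9.97 against 7.60 in w1118, and its difference was called (-3.44, SE 0.32, adjusted p = 0.00993 in limma).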

How the data were processed

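Heads were hybridised to Affymetrix Drosophila Genome 2.0 arrays, 1 array per strain and time. The deposited values are log2 intensities, made by the authors with GCRMA per the submitters' processing notes, whose version is not given in the sources used here. GCRMA sets dim probe sets to a common floor, so changes of dim genes are compressed. Depth has no meaning for arrays, and the number of arrays limits the precision.

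Control probe sets were left out, as were those reaching log2 4 on fewer than 2 of the 4 arrays. Symbols came from the platform annotation, and 13543 of 13646 were updated through their gene ID in RefSeq (Release 6). ZT16 minus ZT4 was taken on the deposited log2 scale. Moderated tests used limma 3.58.1 in R 4.3.3, two-sided, with Benjamini-Hochberg adjustment over 7751 probe sets. The fits were also run on simulated data with the same noise level for every probe set. That run checks the code and cannot show the error rate in these data. Tables were handled with pandas 2.3.3 and numpy 2.4.6 under Python 3.11.15, and figures drawn with matplotlib 3.10.9. The probe set with the highest mean stood for a gene in lists. Genes were named by size of change among those with a log2 of at least 3 on all 4 arrays, by membership of the clock list, and by size within lists. The members and lists were chosen with earlier results of these data known. Alternatives were other thresholds, filters, scalings and moderation, 1 probe set per gene, no strain block, and all 8 arrays.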

Additional observations from a re-analysis of the deposited data

Results flagged for a closer look

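The time change differed between the strains for 6 probe sets in limma, as overexpression minus w1118 (adjusted p between 0.00993 and 0.0452). For 1628699_at the difference was -3.44, with changes in opposite directions. Diedel had a difference of 2.73, with w1118 and both strains that give the residual error near background, so its p is no measure of the spread at higher levels. For 1630429_s_at, which carries no symbol of its own, it was 2.63, from 7.05 at ZT16 against 6.12 at ZT4 in overexpression and 6.61 against 8.32 in w1118. CG10513 had 2.69, from 6.13 against 6.80 in overexpression and 3.50 against 6.86 in w1118. For Cpr100A it was 1.87. rost had 1.94, from 8.82 against 8.24 in overexpression and 6.84 against 8.21 in w1118.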

How the results depend on the processing

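The counts of rises and falls followed the threshold. At 1.5-fold there were 52 shared rises and 58 shared falls, 97 rises and 101 falls in overexpression alone, and 109 and 148 in w1118 alone. At 3-fold these were 5 and 5, 5 and 1, and 4 and 3. With no filter there were 23 rises in overexpression alone and 47 falls in w1118 alone, and with a filter at log2 6 there were 6 rises and 3 falls in overexpression alone. Quantile normalization, equal array medians and 1 probe set per gene left these 6 counts within 1.5 times. The limma time fit called 0 probe sets with no filter, 214 with a filter at log2 6, 30 after quantile normalization (all 30 among the 100), 0 with no strain block and 289 with all 8 arrays. The difference fit called 0 with no filter (1978 at an unadjusted p under 0.05), 2 with a filter at log2 6 and 0 after quantile normalization. Of the 100 time calls, 2 changed direction, both with all 8 arrays, Drs at -0.26 and a probe set with no symbol at -0.34, and none under the other settings. After quantile normalization 23 of the 26 shared calls (not CG9377, Gasp or the second tim probe set), 7 of the 74 others and 0 of the 6 differences passed. With trended and robust moderation 17 of 26 and 52 of 74 passed. Leaving out 1 array leaves a limma fit of 3 arrays no residual degrees of freedom, so it was not run. The fit reported pairs the times within each strain through the strain block, and replicate numbers pair nothing further, since each group holds 1 array.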

Other observations

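Some genes called in limma belong to none of the lists, and the groups named here were chosen after their values were seen. Neprilysin genes, which encode peptidases at the cell surface, went both ways, with Nep6 (0.70), Nep7 (0.99) and Nepl5 (0.79) higher at ZT16 and Nep4 (-0.74) lower, as mean log2 changes over both pairs (adjusted p between 0.0356 and 0.0466 in limma). In the knockout and the tim-gal4 control these changed by 0.15 and 0.09, 0.17 and 0.48, -0.004 and 0.22, and -1.02 and -0.70. Nepl13 fell in w1118 alone (0.06 in overexpression, -1.05 in w1118). The neprilysin genes kept were not counted, and 1.29% of all probe sets were called. Of single enzyme genes, Nmdmc (folate) changed by -0.88, Miox (inositol) by -0.83 and Naprt (nicotinate) by -0.74 (adjusted p between 0.0251 and 0.0392 in limma), and the other genes of these pathways were not counted. The transferrin gene Tsf1 rose, with 10.70 at ZT16 against 9.93 at ZT4 in overexpression and 9.83 against 9.11 in w1118.

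Genes known from the eye were also called outside the phototransduction list, which itself had no call. The retinol dehydrogenase gene rdhB rose by nearly the same amount in both, 0.72 in overexpression and 0.75 in w1118. Cpn, which encodes a calcium-binding protein of photoreceptors, changed by -0.73 in overexpression and -0.70 in w1118, with an adjusted p of 0.0425 in limma.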
